A study of Mus musculus with 2 samples.

Results

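The mitochondrial respiratory chain is built from 2 genomes. The genes described here are its subunits of both and some assembly factors, taken by name without those that carry -ps or Rik. The mitochondrially encoded ones are the mt-Nd, mt-Co, mt-Atp and mt-Cytb genes. The nuclear ones are the Nduf, Uqcr, Cox4 to Cox8 and Atp5 genes, where Nduf includes 8 Ndufaf assembly factors of complex I. Of 31053 genes in the files, 102 had such a name, and the 99 with at least 50 UMIs (unique molecular identifiers, each standing for 1 captured transcript end) in kept cells were taken as members. They were 13 mitochondrial and 86 nuclear genes, and their totals over kept cells ran from 315 UMIs for Cox6a2 to 456716 for mt-Atp6. The names left out for depth were Cox7b2 with 29 UMIs, Cox8c with 0 and a second gene ID of Atp5o with 1.

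The series holds droplet single-cell counts of mouse brain in 2 pooled samples. Sorted brain is FACS-sorted tissue (the labels name no gate) of male mice aged 3 and 12 months, and total brain is unsorted tissue of pooled male and female mice aged 2 and 24 months by the title, where the age label reads 240 months. Both samples mix WT and STING-KO mice (STING is the adaptor of cytosolic DNA sensing), with n = 2 grouped per genotype at each of the young and aged stages. Each matrix joins 4 barcode suffixes that the labels tie to no genotype or age, so every value below is an average over genotypes and ages, and a suffix range shows only how much the value varied within a sample.

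Complex I takes electrons from NADH, complex III and cytochrome c pass them on, complex IV hands them to oxygen, and complex V makes ATP from the proton gradient. The mitochondrial genome encodes some of the subunits of complexes I, III, IV and V, and the nucleus encodes the many remaining ones, so a working chain needs products of both genomes. In brain, neurons and the choroid plexus epithelium, which secretes cerebrospinal fluid, are known for high demand for oxidative energy. Several nuclear subunits of complex IV come as isoform pairs, of which 1 is found in most tissues and the other in few.

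A barcode was kept if it held 500 or more genes and no more than 10% of its UMIs were mitochondrial, which left 10076 of 13499 in sorted and 9367 of 14674 in total brain, with 31220601 and 33498788 UMIs. No barcode sequence was shared between samples, and 46 in sorted and 8 in total brain occurred under more than 1 suffix. Cells were clustered on genes other than the members, and clusters were named from marker genes. Microglia-like cells had reads of 8 of 8 microglia markers in both samples, and choroid plexus-like cells of 8 of 8 choroid plexus markers. Such detection does not tell classes apart: in sorted brain each of these classes had reads of 8 of 8 markers of the other. Their summed levels differed (in CPM, a share of a class's UMIs that is defined below). Microglia markers took 31277 CPM of microglia-like and 462 CPM of choroid plexus-like cells of sorted brain. In total brain they took 20028.5 and 54.2 CPM. The names came from these same markers, so the levels are no separate test of them. Of 30 clusters 3 stayed unnamed. With 1 pooled sample a group there is no replicate and no test, and intervals in brackets are 95% intervals that cover counting error only. The samples differ in sorting, sex, age and the Cell Ranger version in the file headers, and these cannot be told apart. The labels describe both as 10x v3 but also speak of earlier v2 chips for some runs, so a difference in chemistry cannot be told apart from these either.

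In sorted brain the nuclear members took 69566 CPM (counts per 1000000 UMIs of a class) [69424, 69709] in choroid plexus-like cells, the highest of 11 classes, and 15112 CPM [15033, 15191] in microglia-like cells, the lowest. The other classes lay between 18283 CPM in neutrophil-like and 32924 CPM in fibroblast-like cells. In total brain choroid plexus-like cells again held the most, 79767 CPM [79470, 80064], and the next of 9 classes, oligodendrocyte-like cells, had 19605 CPM. Neuron-like cells held the least, 5270 CPM [5227, 5313]. The suffix values of choroid plexus-like cells were 68649 to 72831 CPM in sorted and 69192 to 84063 CPM in total brain, above every suffix of every other class. CPM is a share of a class's UMIs, so fewer transcripts of a gene and more of other transcripts cannot be told apart. The UMIs come from transcript ends and were not scaled by gene length.

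The mitochondrial members ranked classes otherwise. In sorted brain they were highest in oligodendrocyte-like cells at 49236 CPM and lowest in neutrophil-like cells at 8693 CPM, and choroid plexus-like cells, at 37241 CPM, stood behind fibroblast-like and endothelial-like cells. In total brain they were highest in endothelial-like and mural-like cells, 69478 and 69281 CPM, which differed by less than their counting intervals, and lowest in neuron-like cells at 18208 CPM. At Leiden resolution 0.5 the mural-like level was 42351 CPM, so its place in this order depended on the clustering. Haemoglobin transcripts, a sign of red cell RNA, took 27273 CPM of endothelial-like and 25520 CPM of mural-like cells there. Endothelial markers took 20407 CPM of endothelial-like and 12082 CPM of mural-like cells. The part of either in these levels was not tested. The levels of the 2 genomes over classes had r = 0.65 (Pearson, log2 CPM, 11 classes) in sorted and r = 0.50 (9 classes) in total brain, and 0.75 and 0.95 without choroid plexus-like cells. Classes of 1 sample share library and depth, so this is a description.

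**Figure D1:**
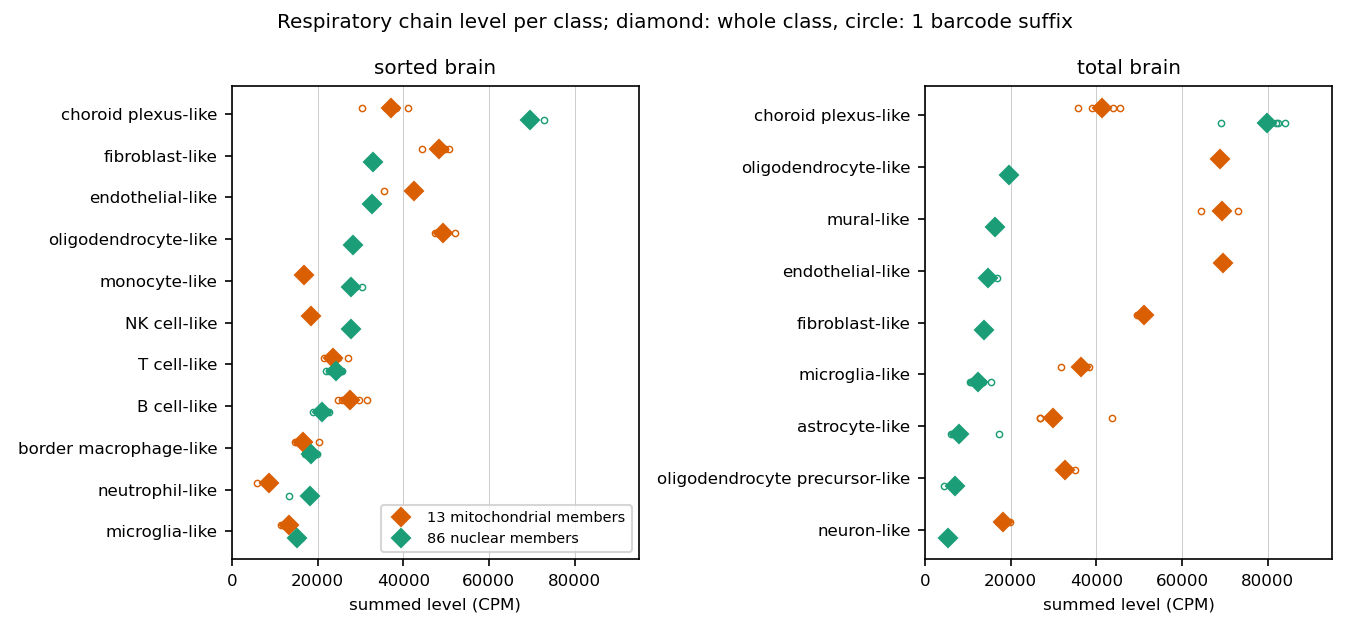
Summed level (CPM, horizontal axis) of the 13 mitochondrial (orange) and 86 nuclear (green) members in each class of sorted (left) and total brain (right); diamonds are whole classes and circles are barcode suffixes with at least 50 cells. Nuclear members stand far above the other classes in choroid plexus-like cells of both samples, at 69566 and 79767 CPM.

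The ratio of mitochondrial to nuclear UMIs put the difference between samples in 1 number. Over all kept cells it was 0.672 in sorted and 2.29 in total brain. In sorted brain the class ratios ran from 0.475 [0.457, 0.494] in neutrophil-like and 0.535 in choroid plexus-like cells to 1.75 [1.71, 1.79] in oligodendrocyte-like cells. In total brain choroid plexus-like cells had 0.518 [0.515, 0.521], and the other 8 classes lay between 2.97 in microglia-like and 4.70 in endothelial-like cells. The share of barcodes that pass the mitochondrial ceiling bears on these values: 237 barcodes of sorted and 1767 of total brain with at least 500 genes exceeded it.

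**Figure D2:**
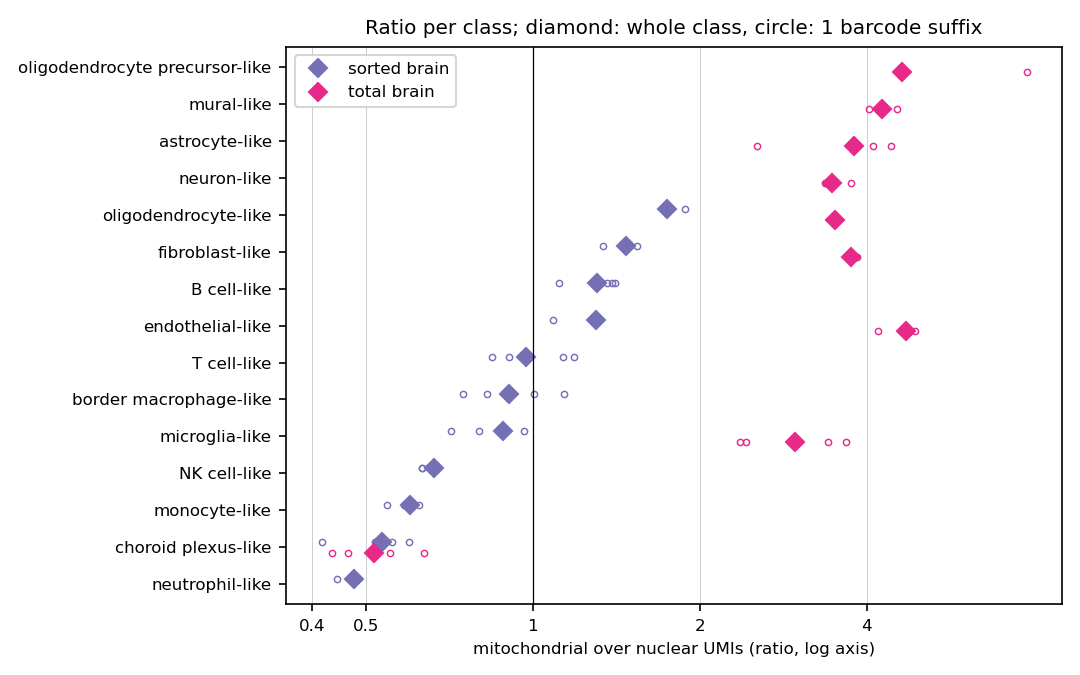
Ratio of mitochondrial to nuclear member UMIs (log axis) per class in sorted (violet) and total brain (pink); diamonds are whole classes and circles are barcode suffixes with at least 50 cells. The 2 samples meet only in choroid plexus-like cells, at 0.535 and 0.518.

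Choroid plexus-like cells carried the highest level of 68 of 86 nuclear members in sorted brain and of 77 of 86 in total brain, and 67 of these were the same genes. How many of all genes were highest in this class was not computed, so these counts have no background beside them. The 10 highest nuclear members there were led in both samples by Cox8a, Cox6c, Cox4i1, Atp5g1, Atp5l and Ndufa4, and 8 of the 10 were shared. Cox8a, a small subunit of complex IV, had 3203, 3158, 3150 and 3441 CPM in the 4 suffixes of sorted brain and 5086, 4968, 5121 and 4254 CPM in those of total brain, so the ranges of the 2 samples did not overlap. Cox6c, another complex IV subunit, had 2923 and 3733 CPM in the whole class of sorted and total brain. Atp5g1, which encodes the c subunit of the rotor of ATP synthase, had 2682 and 2862 CPM. Ndufa4, first described in complex I and found with complex IV, had 2412 and 2926 CPM. Uqcr11 and Uqcr10 of complex III had 1862 and 1694 CPM in sorted brain.

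Choroid plexus-like and microglia-like cells were the deepest classes of sorted brain (13178073 and 9358701 UMIs) and were compared there. In choroid plexus-like cells nuclear members summed to 4.60 times the microglial level and mitochondrial members to 2.79 times, and the log2 ratio of mitochondrial to nuclear UMIs was lower by 0.72 in choroid plexus-like cells (-0.72 [-0.74, -0.71]). At least 2-fold higher were 70 of 85 nuclear members with 10 or more UMIs, beside 18.6% of 13824 genes, and 1 was at least 2-fold lower, beside 42.0%. The median log2 ratio (with 1 CPM added to each level) was 1.93 for nuclear members, 1.42 for mitochondrial ones and -0.71 for all genes. The TMM factors of the classes, another scaling, differed by -0.81 (log2), which would be subtracted from each log2 ratio. The choroid plexus markers alone took 409336 CPM of choroid plexus-like cells.

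By complex, 32 of 37 nuclear complex I subunits, 8 of 8 of complex III, 13 of 16 of complex IV and 14 of 16 of complex V were at least 2-fold higher in choroid plexus-like than in microglia-like cells. Complexes were assigned by gene name here and below, which puts Ndufa4 and Ndufa4l2 in complex I. The complex I assembly factors (Ndufaf genes) stood apart from the subunits they help to join, with 3 of 8 and a median log2 ratio of 0.63. Ndufa11, a complex I subunit, had 1155 against 123 CPM, 9.38-fold [8.83, 9.97]. Atp5g1 had 2494, 2785, 2711 and 2860 CPM in the choroid suffixes and 229, 217, 247 and 229 CPM in the microglial ones, an 11.8-fold difference [11.3, 12.4] with no overlap of suffixes. The only member at least 2-fold lower was Cox6a2.

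The 3 largest log2 ratios were those of minor isoforms of complex IV subunits. Cox8b had 730 CPM [716, 745] in the choroid plexus-like class of sorted brain and 6.84 CPM [5.27, 8.73] in its microglia-like class, a 107-fold difference [83.6, 139]. Cox7a1, the form known from heart and skeletal muscle, had 135 and 1.82 CPM, and Cox6b2, known from testis, 421 and 11.1 CPM. In total brain these 3 were also highest in choroid plexus-like cells, at 952, 167 and 370 CPM. The partner genes, found in most tissues, remained the larger part: Cox8b was 18.5% [18.1, 18.8] of Cox8a plus Cox8b UMIs in choroid plexus-like cells of sorted and 16.3% [15.8, 16.9] of those of total brain. Cox7a1 was 9.29% and 9.75% of its pair with Cox7a2, and Cox6b2 was 23.0% and 22.0% of its pair with Cox6b1.

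The minor forms did not vary alike over suffixes. Cox7a1 had 144, 114, 139 and 144 CPM in the choroid suffixes of sorted brain and 150, 172, 198 and 146 CPM in those of total brain. Cox8b had 688, 490, 934 and 870 CPM in sorted and 1186, 1533, 485 and 405 CPM in total brain, where suffixes 1 and 2 stood above suffixes 3 and 4. At least 1 UMI of Cox8b was seen in 60.1% [58.2, 62.0] of 2499 choroid plexus-like cells of sorted brain and 1.42% [1.10, 1.82] of microglia-like cells, at median depths of 4190 and 2029 UMIs. After thinning every cell to 1000 UMIs the shares were 36.6% of 2478 and 0.790% of 4177 cells, and 21 and 246 shallower cells were left out.

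Reads of choroid plexus genes also occurred in other classes. The 8 choroid plexus markers summed to 8891 CPM in microglia-like cells of sorted brain, 2.17% of their level in choroid plexus-like cells, and to 534 CPM in total brain. All 8 were detected in sorted brain, and Aqp1 was at 0 in total brain. Microglial Cox8b, Cox7a1 and Cox6b2 stood at 0.936%, 1.34% and 2.64% of their choroid level in sorted brain. In fibroblast-like cells of sorted brain the markers stood at 2.68% and Cox6b2 at 44.9% of the choroid level, so Cox6b2 was 189 CPM [168, 213] there, with suffixes at 192, 150 and 229 CPM in the 3 that held at least 50 cells. It was 20.6% of the Cox6b pair in those cells, and 19.5% [12.9, 27.6] in fibroblast-like cells of total brain. The highest share in total brain was that of oligodendrocyte precursor-like cells, 28.6% [15.7, 44.6], with 12 UMIs of Cox6b2 and 30 of Cox6b1 and an interval that includes the choroid share.

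**Figure D3:**
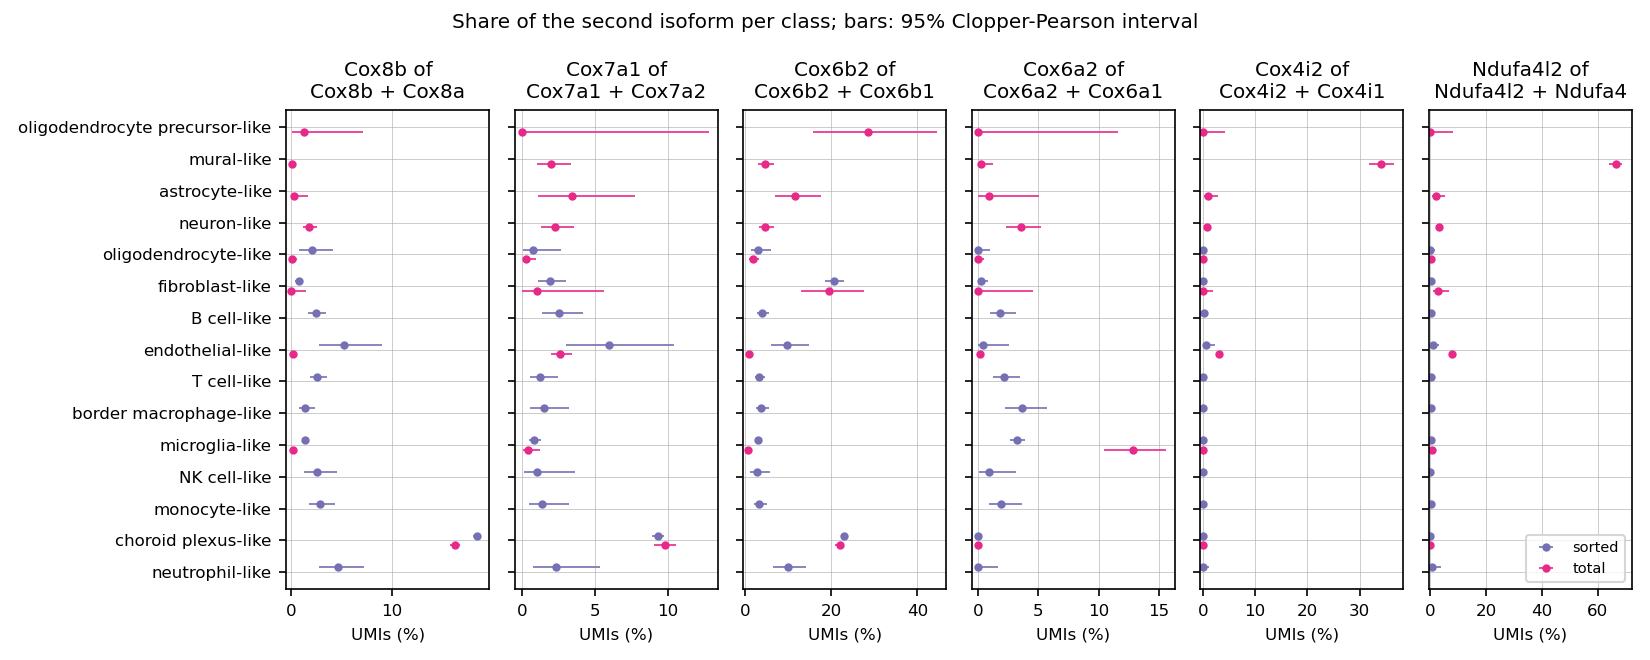
Share of UMIs (%, horizontal axes) that the rarer isoform took of its pair, per class, in sorted (violet) and total brain (pink), with 95% Clopper-Pearson intervals. Cox8b, Cox7a1 and Cox6b2 took large shares in choroid plexus-like cells, Cox6b2 also in fibroblast-like cells and, on 12 of 42 UMIs, in oligodendrocyte precursor-like cells of total brain, Cox6a2 in microglia-like cells of total brain, and Cox4i2 and Ndufa4l2 in mural-like cells.

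The start sites of 4 members that were high in choroid plexus-like cells are shown, because Cox8a and Cox8b are an isoform pair with unlike levels over classes, and Uqcr11 and Ndufc1 hold the other motifs searched. The RefSeq windows (GRCm38.p6) run from 250 bases before to 50 after the start, 300 bases each, and are written 5′ to 3′ on the gene's strand, with matches in capitals. They lie at chr19:7217567-7217866 (minus strand) for Cox8a, chr7:140900397-140900696 (minus) for Cox8b, chr10:80406772-80407071 (minus) for Uqcr11 and chr3:51408906-51409205 (minus) for Ndufc1.
Cox8a: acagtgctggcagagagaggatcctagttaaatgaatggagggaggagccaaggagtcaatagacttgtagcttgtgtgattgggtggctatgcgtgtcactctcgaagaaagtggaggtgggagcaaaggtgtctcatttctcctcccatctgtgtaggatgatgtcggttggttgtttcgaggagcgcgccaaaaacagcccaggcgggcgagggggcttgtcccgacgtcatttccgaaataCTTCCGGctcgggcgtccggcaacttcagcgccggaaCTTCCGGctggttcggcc
Cox8b: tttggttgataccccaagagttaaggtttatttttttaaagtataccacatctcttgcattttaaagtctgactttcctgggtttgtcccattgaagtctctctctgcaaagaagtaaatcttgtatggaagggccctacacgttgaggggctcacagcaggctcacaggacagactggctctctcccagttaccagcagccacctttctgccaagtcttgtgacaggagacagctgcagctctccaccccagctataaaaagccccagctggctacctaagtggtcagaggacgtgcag
Uqcr11: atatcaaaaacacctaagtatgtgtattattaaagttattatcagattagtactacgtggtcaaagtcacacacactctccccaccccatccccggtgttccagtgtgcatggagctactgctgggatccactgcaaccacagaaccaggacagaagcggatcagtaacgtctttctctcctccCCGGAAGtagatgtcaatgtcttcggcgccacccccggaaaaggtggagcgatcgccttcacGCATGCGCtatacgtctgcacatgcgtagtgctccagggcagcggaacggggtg
Ndufc1: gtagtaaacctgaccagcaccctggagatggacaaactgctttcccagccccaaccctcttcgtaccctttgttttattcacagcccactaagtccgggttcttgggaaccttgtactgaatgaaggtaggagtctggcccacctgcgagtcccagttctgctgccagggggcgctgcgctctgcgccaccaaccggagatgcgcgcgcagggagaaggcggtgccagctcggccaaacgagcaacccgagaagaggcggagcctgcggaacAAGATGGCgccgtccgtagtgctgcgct

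Cox8a held 2 matches of CCGGAAG (both as its reverse complement CTTCCGG), a core of ETS factor sites such as that of GABP, and the window of Cox8b held none of the motifs searched. Uqcr11 held 1 match of GCGCATGC (as GCATGCGC), the core of the NRF1 site, and 1 of CCGGAAG, and Ndufc1 1 of AAGATGGC, the core of the YY1 site. On either strand, GCGCATGC was in 11 of the 70 nuclear members with a window in the table (15.7%), beside 3.05% of 27025 genes and 3.93% of 17491 protein-coding genes. CCGGAAG was in 16 of 70 (22.9%), beside 9.93% and 12.9%, and AAGATGGC in 10 of 70 (14.3%), beside 3.19% and 3.57%. These are matches of letters. The windows of members were richer in G and C, with a median of 57.3% against 52.7% for all windows. The part of this in the shares was not tested. CCGGAAG and AAGATGGC can share bases, and each was counted on its own.

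Cox6a2, the form of Cox6a known from heart and skeletal muscle, had the reverse pattern, with 0.228 CPM in the choroid plexus-like class of sorted brain and 11.3 CPM [9.27, 13.7] in its microglia-like class. It was 12.8% [10.5, 15.5] of the Cox6a pair in microglia-like cells of total brain and 3.25% [2.67, 3.92] in those of sorted brain. In sorted brain that share was not particular to microglia-like cells. Border macrophage-like cells had 3.69% [2.24, 5.70] on 19 UMIs of Cox6a2, T cell-like cells 2.19% [1.28, 3.48] and monocyte-like cells 1.95% [0.896, 3.67]. Its microglial level varied widely within each sample, with 9.49, 3.15, 17.8 and 39.9 CPM in suffixes 1 to 4 of sorted and 64.2, 45.7, 10.4 and 5.39 CPM in those of total brain. The ranges overlapped, and 2.13% of 4423 and 7.27% of 578 cells had a UMI. With cells thinned to 1000 UMIs the shares were 1.24% [0.931, 1.63] and 0.901% [0.293, 2.09], which overlap. The level rests on 106 and 90 UMIs.

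Cox4i2 and Ndufa4l2, forms known for responses to low oxygen and for expression in pericytes, were highest in mural-like cells (mural cells are pericytes and smooth muscle of vessels) of total brain. Cox4i2 (chr2:152754173-152765037, GRCm38) had 281 CPM there and 16.4 CPM in endothelial-like cells, the next class. It was 34.1% [31.7, 36.6] of the pair with Cox4i1 in mural-like cells and at most 3.09% in any other class of total brain. Ndufa4l2 (chr10:127514967-127517154) had 570 CPM, where Ndufa4, its more general partner, had 287 CPM, and made up 66.5% [64.1, 68.8] of that pair. Endothelial-like cells had 38.6 CPM of Ndufa4l2, which was 6.77% of the mural level, while mural markers there stood at 12.8% of theirs. In turn, endothelial markers took 12082 CPM of mural-like and 20407 CPM of endothelial-like cells, so the mural-like class also held endothelial RNA. Its part in these levels was not tested. The mural markers Acta2, Tagln and Myh11 were leading genes of an unnamed cluster (cluster 6, 229 cells), not of the mural-like class. In choroid plexus-like cells of total brain 0 of 350 cells had a UMI of Ndufa4l2, which allows up to 0.857% of cells with a UMI (3 counts of the total), and is no limit on cells that express the gene at a level too low to give one.

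The mural pattern held in each suffix of total brain. From suffix 1 to 4, which held 24, 15, 66 and 69 cells, Cox4i2 had 312, 225, 355 and 226 CPM and Ndufa4l2 had 579, 676, 602 and 526 CPM. Sorted brain had 31 mural-like cells, fewer than the 50 asked of a class. These few held 40 UMIs of Cox4i2 and 82 of Ndufa4l2 in 39667 UMIs, beside 2 and 5 UMIs in all 4423 microglia-like cells.

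Neuron-like and endothelial-like cells were the deepest contrast within total brain (10900004 and 6169388 UMIs). Mitochondrial members were 3.82 times and nuclear members 2.81 times lower in neuron-like cells, with a log2 difference of the ratio of -0.44 [-0.46, -0.43]. At least 2-fold lower were 58 of 86 nuclear members, beside 19.7% of 16398 genes, and at least 2-fold higher were 5, beside 40.9%. All 13 mitochondrial members were at least 2-fold lower. The median log2 ratio was -1.49 for nuclear members and 0.64 for all genes, before TMM scaling, which subtracts 0.49. Neuron-like cells were shallower, with a median of 1435 UMIs against 4829, and the nuclear RNA Malat1 took 50581 against 30524 CPM; the part of these in the levels was not tested.

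Ndufa7, a subunit of complex I, had 47.8, 52.2, 38.9 and 33.0 CPM in the neuronal suffixes and 451, 436, 435 and 451 CPM in the endothelial ones, 11.4 times lower. Ndufa1, another small subunit of complex I, had 18.9, 15.4, 16.4 and 17.5 against 133, 169, 139 and 122 CPM. Its neuronal level was the lowest of the 9 classes. Uqcrb of complex III had 41.5 and 323 CPM. Cox4i2 and Ndufa4l2 were also among the 5 lowest.

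A few complex I genes ran the other way. Ndufs1, the largest subunit of complex I and a carrier of iron-sulfur clusters, had 80.6, 73.7, 88.9 and 82.5 CPM in the neuronal and 35.2, 44.5, 40.8 and 38.8 CPM in the endothelial suffixes, 2.11-fold higher [1.83, 2.43]. The assembly factors Ndufaf5 and Ndufaf4 were 3.79-fold [2.73, 5.37] and 2.35-fold [2.05, 2.69] higher in neuron-like cells. The suffixes of these 3 genes did not overlap between the classes, which was part of the rule that named them. The other 2 of the 5 were Cox8b and Cox6a2, with 29 and 25 neuronal UMIs and overlapping suffixes. Assembly factors took 4.91% of nuclear member UMIs in neuron-like cells, the most of the 9 classes, and 0.648% in choroid plexus-like cells, the least. Complex IV subunits, without Ndufa4 and Ndufa4l2, took 17.8% in neuron-like cells, also the least, and 28.7% in choroid plexus-like cells, the most.

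Within neuron-like cells the 6 clusters had ratios between 1.55 in cluster 27 (185 cells) and 4.43 in cluster 22 (2310 cells). The ratio also moved with depth. In 4 equal groups of neuron-like cells by UMI count it was 1.94, 2.81, 3.30 and 4.16 from the shallowest (median 732 UMIs) to the deepest (3608 UMIs), as nuclear members went from 7098 to 4667 CPM and Malat1 from 36743 to 57414 CPM. In endothelial-like cells the same grouping gave 5.87, 5.33, 4.28 and 4.75.

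Microglia-like cells showed the widest gap between samples among the 3 classes compared. Mitochondrial members summed to 13359 CPM [13286, 13434] in sorted and 36394 CPM [36185, 36603] in total brain, 2.72-fold higher, while nuclear members went from 15112 to 12245 CPM, 1.23-fold lower. The ratio was 0.883, 0.965, 0.801 and 0.712 in suffixes 1 to 4 of sorted brain and 2.42, 2.36, 3.40 and 3.67 in those of total brain, with no overlap. The log2 difference was 1.75 [1.73, 1.77]. At least 2-fold higher were 12 of 13 mitochondrial members, beside 24.5% of 12876 genes, and 13 of 13 were higher with suffix ranges that did not overlap, beside 23.0%. Of 85 nuclear members 1 was at least 2-fold higher, and 2 were at least 2-fold lower, beside 4.04%. Of the 85, 31 were lower with suffix ranges that did not overlap, beside 11.7% of all genes, and 0 were higher in that way, beside 23.0%. With TMM scaling, which subtracts 0.38 from each log2 ratio, 11 were at least 2-fold lower, beside 10.2% of all genes, so that count lay near the background.

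Among the mitochondrial transcripts of microglia-like cells the difference ran from 1.62-fold [1.58, 1.66] for mt-Nd1 to 7.47-fold [5.40, 10.5] for mt-Nd6, the complex I gene on the other strand of the genome. Mt-Atp6, a complex V subunit in the membrane, had 2716, 2903, 2632 and 2219 CPM in the suffixes of sorted and 7212, 5742, 6322 and 6897 CPM in those of total brain. Mt-Nd3 had 182, 228, 89.7 and 99.7 against 707, 766, 1318 and 1382 CPM. The nuclear members lower in total brain were Cox6b2, with 11.1 and 1.24 CPM, and Cox8b, with 6.84 and 0.933 CPM, both high in choroid plexus-like cells. Their levels in microglia-like cells of total brain rest on 4 and 3 UMIs. Choroid plexus markers in the same cells went from 8891 to 534 CPM; their part in this was not tested. The nuclear member higher was Cox6a2, whose suffixes overlapped, and without sorted suffix 2 or total suffix 1 the count was 0.

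The 2 samples held different microglia-like clusters: clusters 5, 4 and 12 made up 43.9%, 31.8% and 24.2% of the class in sorted brain, and cluster 21 made up 74.6% in total brain. Cluster 5 had cells of both, 1942 and 120. There the ratio was 0.861 in sorted and 3.16 in total brain, a log2 difference of 1.87, and nuclear members differed by 0.05. Median depth of the class was 2029 and 4618.5 UMIs, and Malat1 took 36875 CPM in sorted and 20463 CPM in total brain; the part of these was not tested. In 4 such groups from shallowest to deepest the ratio of microglia-like cells was 0.931, 0.823, 0.840 and 0.926 in sorted brain. In total brain it was 4.60, 4.62, 2.44 and 2.81, so it was lower in the deeper groups there.

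Choroid plexus-like cells showed no such gap. The ratio was 0.597, 0.558, 0.519 and 0.416 in the suffixes of sorted brain and 0.465, 0.553, 0.435 and 0.635 in those of total brain, which overlap, and the log2 difference was -0.05 [-0.06, -0.04]. The nuclear median log2 ratio was 0.19 beside 0.45 for all genes, and its sign turns with TMM scaling, which subtracts 0.59. None of 84 nuclear members was 2-fold higher (beside 24.9% of 12634 genes) or 2-fold lower (beside 3.25%). The sign of the ratio depended on the cells taken: it was 0.46 in cluster 0, which held 94.8% of the class in sorted brain, and -0.61 in cluster 1, which held 72.0% in total brain. With no mitochondrial ceiling it was 0.70, and without sorted suffix 1, total suffix 1 or total suffix 3 it was 0.039, 0.0030 and 0.023. Of the 13 mitochondrial members 5 were at least 2-fold higher in total brain, namely mt-Nd6, mt-Nd3, mt-Nd4l, mt-Nd2 and mt-Atp8. Mt-Nd1 was lower, 2867 against 4607 CPM, with no overlap of suffixes.

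In choroid plexus-like cells 70 nuclear members lay above and 14 below 0 on the log2 scale (total over sorted brain). Of 12634 genes 76.3% lay above 0, so the count of 70 was near the background. Higher with suffix ranges that did not overlap were 24 of 84, beside 32.2% of all genes, and lower in that way were 4, beside 4.53%, so both counts lay near the background. Cox6a1 had 947 CPM in total and 1430 CPM in sorted brain, and Ndufa3, a complex I subunit, 749 and 1118 CPM. Ndufs1 had 127 and 75.2 CPM, and Atp5e, the epsilon subunit of ATP synthase, 2255 and 1459 CPM. The suffixes of these 4 genes did not overlap. They are among the genes counted in that way above, so this adds nothing to counts near the background.

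Oligodendrocyte-like cells (150 in sorted and 117 in total brain) had a ratio of 1.75 and 3.51, a log2 difference of 1.01 [0.97, 1.04]. Mitochondrial members were 1.40-fold higher and nuclear members 1.44-fold lower in total brain. Choroid plexus markers took 11753 CPM (8 of 8 detected) of these cells in sorted and 2390 CPM (6 of 8, with Clic6 and Aqp1 at 0) in total brain, and erythroid markers 16608 and 6853 CPM; their part in the differences was not tested. At least 2-fold higher were 2 of 81 nuclear members, beside 27.2% of 9730 genes, and 3 were 2-fold lower, beside 5.72%. The higher ones were the assembly factors Ndufaf6 and Ndufaf1, with intervals that include no difference, and without any 1 of 7 suffixes the count was 0 or 1. The lower ones were Cox6b2, Ndufa1 and Cox6a1, and Cox6a1 had 396 and 836 CPM. All 3 were highest in choroid plexus-like cells of both samples, but so were 67 of all 86 nuclear members. Cox6b2 rests on 10 and 8 UMIs. No suffix of total brain held 50 of these cells, so suffix ranges are not given. The counts were less steady than the ratio: without the mitochondrial ceiling 30 nuclear members were at least 2-fold lower, and at Leiden resolution 2 there were 12.

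Endothelial-like and fibroblast-like cells, which had at least 100 cells in both samples, gave log2 differences of the ratio of 1.86 and 1.35 (total over sorted). There the nuclear members were 2.21-fold and 2.41-fold lower in total brain, and mitochondrial ones 1.64-fold and 1.06-fold higher. In fibroblast-like cells these sizes depended on the cell filter. With 200 genes and a 20% ceiling mitochondrial members were 2.15-fold higher and nuclear ones 1.60-fold lower in total brain. With 1000 genes and 5% mitochondrial members were 1.51-fold lower and nuclear ones 4.07-fold lower, and with no ceiling mitochondrial members were 2.31-fold higher. Choroid plexus markers took 73042 CPM in endothelial-like cells of sorted brain, 17.8% of their choroid level, and their part in the nuclear level there was not tested.

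**Figure D4:**
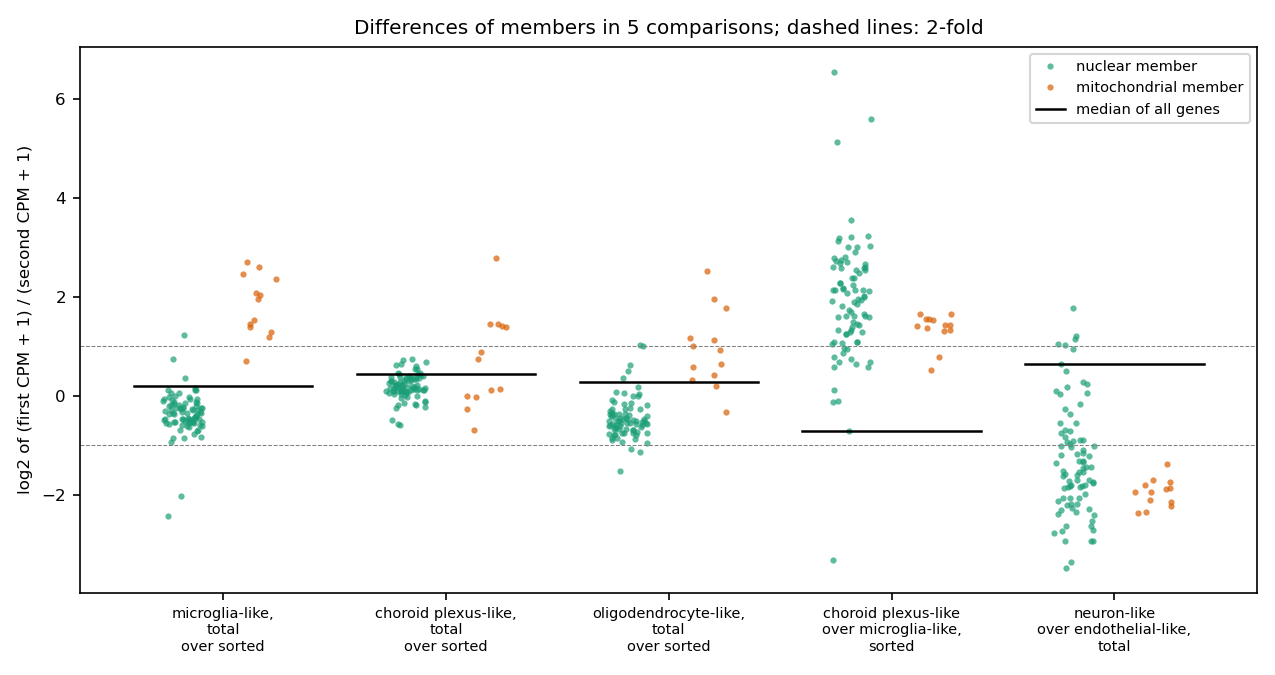
Log2 ratio of each member (vertical axis, 1 CPM added to both levels) in the 5 comparisons, for nuclear (green) and mitochondrial members (orange); black lines are the medians of all genes and dashed lines mark 2-fold. Mitochondrial members stand above nuclear ones between samples in microglia-like cells, and 70 nuclear members lie past 2-fold between choroid plexus-like and microglia-like cells.

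The make-up of the mitochondrial transcripts differed between samples for part of the genes. The share of mt-Nd3 among mitochondrial member UMIs lay between 0.760% and 1.35% over the 11 classes of sorted brain and between 2.76% and 3.41% over the 9 of total brain. For mt-Nd1 the ranges were 8.13% to 12.4% and 4.64% to 7.57%, for mt-Nd2 2.33% to 3.73% and 3.84% to 8.90%, and for mt-Co2 7.77% to 10.4% and 11.8% to 14.2%. The class ranges did not overlap for 5 of 13 transcripts, 4 higher (mt-Nd4l was the other one) and 1 lower in total brain. With at least 50 cells, only the microglia-, choroid plexus-, oligodendrocyte-, endothelial- and fibroblast-like classes were in both samples. The ranges thus mix cell type with sample, and no share over all genes was computed to stand beside this count. Mt-Co3 and mt-Atp6, which took the largest medians in both samples, overlapped. Suffixes also differed within a sample: mt-Nd3 was 1.35%, 1.61%, 0.752% and 0.868% of microglial mitochondrial UMIs in suffixes 1 to 4 of sorted brain and 1.89%, 2.41%, 3.64% and 3.60% in total brain, and choroid plexus-like cells had the same order of suffix pairs, 1.34%, 1.60%, 0.767% and 0.941% against 2.14%, 2.47%, 3.79% and 3.92%.

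Classes differed within a sample too. Mt-Nd2 was most in choroid plexus-like cells of both samples (3.73% and 8.90%), and mt-Cytb most in fibroblast-like cells of both (17.5% and 14.97%). Mt-Nd6 had 256 and 1273 UMIs over the named classes of sorted and total brain, the fewest of the 13, and mt-Atp8 619 and 1754. The gene of mt-Atp8 (chrM:7766-7969) overlaps that of mt-Atp6 (chrM:7927-8607) by 43 bases, and reads there belong to a shared transcript. How such reads were assigned to either gene is stated in neither the labels nor the headers used here. The shared stretch is shown with the start codon of mt-Atp6 in capitals, since it limits what a count of either gene means.
mt-Atp6 start: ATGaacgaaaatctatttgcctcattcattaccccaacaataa

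**Figure D5:**
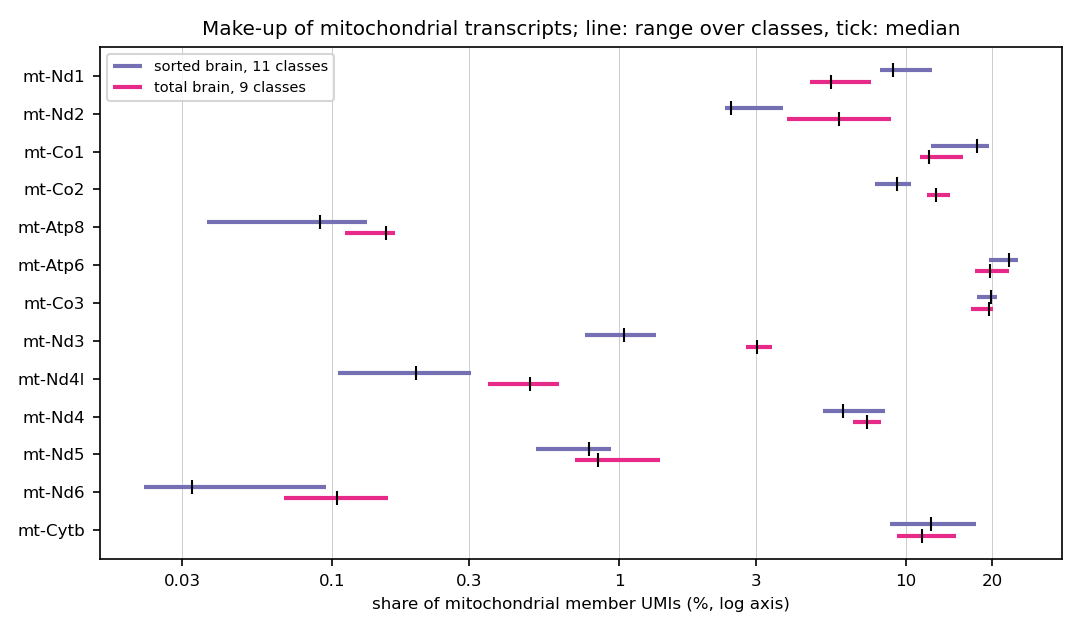
Share of each mitochondrial transcript among mitochondrial member UMIs (%, log axis): lines give the range over the classes of sorted (violet, 11 classes) and total brain (pink, 9 classes) and ticks the medians. The ranges of mt-Nd1, mt-Nd2, mt-Co2, mt-Nd3 and mt-Nd4l do not overlap between the samples.

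Genes around the chain were followed in lists, whose counts stand beside the shares of all genes past 2-fold. In choroid plexus-like against microglia-like cells of sorted brain, where 18.6% of all genes were higher and 42.0% lower, glycolysis genes were at least 2-fold higher for 14 of 18 and lower for 2, with Pfkp, a phosphofructokinase, at 136 and 3.85 CPM, and Hk2, a hexokinase, at 4.02 and 395 CPM. Complex II, which feeds electrons from succinate and is encoded by the nucleus alone, had 1 of 4 genes 2-fold higher, Sdhc at 319 and 79.9 CPM. Cytochrome c and ubiquinone genes had 3 of 14 higher and 2 lower, among them Cycs (cytochrome c) at 622 and 109 CPM and Coq7 at 141 and 17.8 CPM. Of 23 genes for the upkeep and expression of mitochondrial DNA 0 were higher and 9 lower, the second count near the background, with Mtif2 at 6.75 and 46.8 CPM and Twnk, the mitochondrial helicase, at 1.82 and 11.8 CPM. Assembly factors had 3 of 27 higher, with Cox20 at 444 and 83.3 CPM, and 4 lower. The regulator Ppargc1a, a coactivator of mitochondrial biogenesis, was the 1 of 11 that was higher, 15.3 and 0.321 CPM, while Nrf1 had 5.99 and 29.4 CPM and was among 6 lower. Carriers had 5 of 11 higher and 0 lower, with Slc25a4, an ADP/ATP carrier, at 888 and 202 CPM.

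In neuron-like against endothelial-like cells of total brain 40.9% of all genes were higher and 19.7% lower. Regulators were higher for 5 of 11 and lower for 1, near the background for higher genes, with Ppargc1b at 160 and 4.54 CPM and Ppargc1a at 51.7 and 4.86 CPM. Genes for mitochondrial DNA upkeep and expression were higher for 6 of 23 and lower for 2, fewer than the background share in both directions, with Lrpprc, which stabilises mitochondrial messenger RNA, at 85.5 and 17.8 CPM. Complex II was lower for 2 of 4, assembly factors were higher for 6 and lower for 5 of 27, and glycolysis genes higher for 4 and lower for 1 of 18. Carriers included Ucp2, an uncoupling protein, at 8.53 and 310 CPM, and Ckmt1, the mitochondrial creatine kinase, at 77.1 and 3.73 CPM.

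Between samples, the shares of all genes at least 2-fold higher in total brain were 24.5% in microglia-like, 24.9% in choroid plexus-like and 27.2% in oligodendrocyte-like cells. Microglia-like cells had 1 of 23 mitochondrial DNA genes at least 2-fold higher in total brain and 0 lower, with a median log2 ratio of -0.13, while the mitochondrial transcripts had a median of 1.96. Complex II had 0 of 4 past 2-fold and a median of -0.67. Regulators were higher for 5 of 9, with Yy1 at 106 and 19.6 CPM. In choroid plexus-like cells 7 of 11 regulators were higher, again with Yy1, at 51.9 and 7.51 CPM, while 3 of 23 mitochondrial DNA genes were, below the background. Oligodendrocyte-like cells had 2 of 8 and 3 of 22, at or below the background. The sorted cells of a class serve in more than 1 of these comparisons, so they are not independent of each other.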

How the data were processed

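The authors deposited, per the file headers, a 10x matrix of UMI counts (whole, not normalized) for each of the 2 samples, made with Cell Ranger 3.0.2 (sorted) and 3.1.0 (total). Per the submitters' processing notes the genome was mm10. Barcodes under 500 genes or over 10% mitochondrial UMIs were left out. Both samples were clustered together with scanpy 1.11.5 (2000 variable genes without members or mt- genes, 30 principal components, 15 neighbours, Leiden resolution 1). Clusters were named from 20 marker lists, by a rule settled after clusters were seen. Doublets were kept: Scrublet called 0.844% of sorted and 0.0747% of total kept barcodes, too few in total brain to have worked.

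Counts were summed per class and divided by class UMIs (CPM). Log2 ratios used 1 CPM added and at least 10 UMIs over both classes. Intervals are exact Poisson or Clopper-Pearson at 95%, for counting error only; with 1 pooled sample a group no test was made. Members, the 8 gene lists and tests were chosen with earlier results of these data known. Named members were the mitochondrial ones, isoform pairs, the 10 highest nuclear ones in the class with the highest nuclear level, up to 5 per direction with the largest 2-fold differences, at least 50 UMIs and no suffix overlap, and the 8 per sample most above their class median; list genes were the 2 highest and 2 lowest log2 ratios. Others named were chosen after their values were seen. The log2 ratio of single genes was tested on simulated counts, and the ratio of mitochondrial to nuclear UMIs was not. Positions are from GENCODE M21 (GRCm38). TMM factors came from edgeR 4.0.16.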

Additional observations from a re-analysis of the deposited data

Results flagged for a closer look

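Barcodes left out of every comparison also held member UMIs, and their ratio of mitochondrial to nuclear members stood above that of the kept cells (0.672 in sorted and 2.29 in total brain). Barcodes over the mitochondrial ceiling had a ratio of 3.13 in sorted and 8.82 in total brain, and the ceiling itself selects on mitochondrial UMIs. Barcodes under 500 genes had 2.67 in sorted and 11.3 in total brain.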

How the results depend on the processing

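No paired analysis was possible because each group is 1 pooled sample and barcode suffixes are tied to no genotype or age. Values below are log2 differences of the mitochondrial to nuclear ratio, or counts of nuclear members past 2-fold, and the cause of each shift was not tested. With a looser filter of 200 genes and a 20% mitochondrial ceiling the ratio was 1.82 in microglia-like, 0.47 in choroid plexus-like (main value -0.05, so reversed) and 1.11 in oligodendrocyte-like cells between samples, -0.77 for choroid plexus-like over microglia-like and -0.51 for neuron-like over endothelial-like cells. With a stricter one of 1000 genes and 5% it was 1.38, -0.23 and, for choroid plexus-like over microglia-like, -0.82; the other 2 gave no value. With no ceiling it was 2.15, 0.70 (reversed), 1.69, -0.62 and -0.10. With equal weight per suffix it was 1.78 and -0.010 for the first 2 comparisons and -0.68 and -0.39 for the last 2. Neuron-like over endothelial-like cells had -0.49 with members allowed in clustering and -0.42 at Leiden resolution 0.5, and oligodendrocyte-like cells 1.07 at resolution 2. Chosen after seeing the data, cluster 5 gave 1.87, cluster 0 gave 0.46 (reversed) and cluster 1 gave -0.61. Leaving out each suffix in turn gave 1.63 to 1.86, -0.13 to 0.039 (reversed without sorted suffix 1, total suffix 1 and total suffix 3), 0.92 to 1.10, -0.81 to -0.67 and -0.47 to -0.39.

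In microglia-like cells the 1 higher count was 0 with equal weight, a pseudocount of 10 or TMM scaling and 2 in cluster 5 (0 to 1 without a suffix); the 2 lower were 0 with that pseudocount and 11 with TMM scaling and in cluster 5. In choroid plexus-like cells between samples the 0 higher were 1 with the stricter filter and 4 in cluster 1, and the 0 lower were 3 with TMM scaling. In oligodendrocyte-like cells the 2 higher were 0 with the looser filter, no ceiling, resolution 2, doublets removed, a pseudocount of 10, at least 50 UMIs or TMM scaling and 1 with equal weight (0 to 2 without a suffix). The 3 lower were 23, 30, 12, 1, 5 and 5 with the looser filter, no ceiling, resolution 2, equal weight, no UMI minimum and TMM scaling (2 to 4 without a suffix). For neuron-like over endothelial-like cells the 5 higher were 3 with the looser filter, at least 50 UMIs or the denominator without mitochondrial and ribosomal protein genes, 2 with a pseudocount of 10 and 1 with TMM scaling (4 to 5 without a suffix). For choroid plexus-like over microglia-like cells the 70 higher were 69 to 71 without a suffix. Of 230 mitochondrial class levels under alternatives 135 moved past counting error, by up to 3.22 times (astrocyte-like cells of total brain, 29952 to 9302 CPM with the stricter filter), and of 250 nuclear ones 139, by up to 1.83 times (fibroblast-like cells of total brain, 13659 to 7457 CPM with that filter). Of 240 log2 values of named members under alternatives 69 moved past counting error and 0 changed sign. These members were named for large differences of at least 2-fold, so a change of sign was unlikely from the start.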
